A study of Mus musculus with 43 samples.

Results

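Broad regions of open chromatin were examined in neurons of the mouse frontal cortex. A broad region was an autosomal region of a deposited ATAC-seq count table that was 3 kb or more from its listed start to its listed end. Across both ATAC tables, 11325 of 358103 regions qualified. The female table held 1556 of them among its 161879 autosomal regions (0.961%), and the male table held 9769 among 188633 (5.18%). Width alone chose them, and a gene was called a carrier when at least 1 base of its span, as listed in the female RNA table, lay inside a broad region of the table of the same sex.

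ATAC-seq uses a transposase that inserts adapters where DNA is not covered by nucleosomes, so reads pile up over active promoters and enhancers. Most such sites are short. Long stretches of accessible chromatin are known from clusters of neighbouring enhancers near genes that define a cell type, from promoters of strongly transcribed genes, and from repeated sequence to which many reads map. Broad accessible or acetylated domains in neurons have been described over synaptic genes and over genes that respond to neuronal activity.

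The mice were wildtype Swiss Webster animals that were weaned on postnatal day 25 and studied at 2 months of age. Environmental enrichment (EE) meant a bigger cage with extra nesting material, a running wheel, a tube and toys that were changed every few days, and standard housing (SH) meant a plain cage with bedding and nesting. Frontal cortex was fixed with paraformaldehyde, and nuclei that stained for NeuN, a neuronal nuclear protein, were sorted for either nuclear RNA-seq or ATAC-seq. ATAC libraries numbered 3 EE and 3 SH for females and 6 EE and 7 SH for males, and RNA libraries numbered 6 EE and 6 SH for each sex. Female and male libraries carry different prefixes in their labels, and the labels do not state what the prefixes stand for. An effect of sex and an effect of a batch marked by the prefix cannot be told apart in these tables. The labels do not state that replicates were separate animals, so a p-value here measures the spread between these libraries, which may be technical. Totals were 19.1 to 26.3 M (mega) counts per female ATAC library, 27.7 to 73.8 M per male ATAC library, and 10.4 to 15.4 M per RNA library. The sorted nuclei carried neuronal RNA: 12 neuronal marker genes summed to 8586 to 9170 CPM (counts scaled to library size) in female EE libraries and 8719 to 9429 CPM in female SH libraries. The 5 microglial markers summed to 4.80 to 12.3 CPM in female EE libraries and 4.79 to 21.4 CPM in female SH libraries, and 5 oligodendrocyte markers to 127 to 234 CPM in EE and 116 to 339 CPM in SH.

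Promoters from RefSeq (GRCm38.p6) show what lies at the gene starts inside broad regions. Each window of 300 bases runs from upstream of an annotated start to just past it and is written 5′ to 3′ on the strand of the gene. The 5 windows below belong to Jph4, Dclk1, Junb and Per1, carriers that recur in the results, and to Bcl11a, a transcription factor of the neuronal list. Capitals mark the GC box GGGCGG, a binding motif of Sp1-type factors, read on either strand. Jph4 lies at chr14:55116886-55117185 on the minus strand, Dclk1 at chr3:55242114-55242413 on the plus strand, Junb at chr8:84978699-84978998 on the minus strand, Per1 at chr11:69098699-69098998 on the plus strand, and Bcl11a at chr11:24080445-24080744 on the plus strand.
Jph4: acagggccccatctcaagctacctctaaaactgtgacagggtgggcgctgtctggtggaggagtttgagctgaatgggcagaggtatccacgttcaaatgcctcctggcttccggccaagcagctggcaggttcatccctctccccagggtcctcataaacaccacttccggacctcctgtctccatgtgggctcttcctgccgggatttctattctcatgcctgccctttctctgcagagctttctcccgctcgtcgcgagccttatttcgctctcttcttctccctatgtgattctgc
Dclk1: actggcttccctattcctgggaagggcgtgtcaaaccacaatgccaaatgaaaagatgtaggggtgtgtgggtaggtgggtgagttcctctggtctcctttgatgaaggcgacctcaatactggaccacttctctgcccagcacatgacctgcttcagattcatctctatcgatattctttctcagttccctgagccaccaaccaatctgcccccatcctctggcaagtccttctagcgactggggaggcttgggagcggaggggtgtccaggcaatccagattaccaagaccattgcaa
Junb: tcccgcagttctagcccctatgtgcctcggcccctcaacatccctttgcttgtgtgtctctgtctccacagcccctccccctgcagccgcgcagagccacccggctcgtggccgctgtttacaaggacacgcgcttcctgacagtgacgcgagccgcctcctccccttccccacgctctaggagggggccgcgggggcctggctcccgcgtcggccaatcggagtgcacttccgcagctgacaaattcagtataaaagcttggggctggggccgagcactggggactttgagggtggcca
Per1: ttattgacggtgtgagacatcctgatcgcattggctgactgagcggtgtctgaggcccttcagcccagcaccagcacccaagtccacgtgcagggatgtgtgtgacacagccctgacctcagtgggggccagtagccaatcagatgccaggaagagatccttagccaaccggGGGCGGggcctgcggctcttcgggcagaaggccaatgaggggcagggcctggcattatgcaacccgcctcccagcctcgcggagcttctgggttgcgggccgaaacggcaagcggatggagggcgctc
Bcl11a: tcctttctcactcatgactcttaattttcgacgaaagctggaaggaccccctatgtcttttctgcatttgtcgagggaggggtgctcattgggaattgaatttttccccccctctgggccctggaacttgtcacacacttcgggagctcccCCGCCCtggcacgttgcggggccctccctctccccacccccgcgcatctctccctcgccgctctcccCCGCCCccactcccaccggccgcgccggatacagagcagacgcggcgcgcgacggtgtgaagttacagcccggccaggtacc
The windows of Jph4, Dclk1 and Junb hold no GC box, that of Per1 holds 1 and that of Bcl11a holds 2. CpG dinucleotides number 10 in Jph4, 5 in Dclk1, 21 in Junb, 16 in Per1 and 23 in Bcl11a. Among 31396 promoter windows of 300 bases, the 861 that overlapped a female broad region had a median of 20 CpG (interquartile range 12 to 28). The 9847 windows in narrower female regions had a median of 21 and the 20688 in no region a median of 4. GGGCGG was found in 66.5% of windows in female broad regions, 61.9% of those in narrower regions and 22.4% of those in no region, against 36.0% of all windows. For the 4080 windows in male broad regions the median was 22 CpG and the share with GGGCGG 63.7%. TATAAA, searched on both strands, occurred in 6.50% of windows in female broad regions against 13.6% of all windows. By CpG count and by share with GGGCGG, promoters in broad regions were close to those in narrower regions and above those in no region.

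Broad regions also covered microRNA hairpins, 14 of the 919 hairpins in RefSeq in the female table and 103 in the male table, with all 14 in both. The mature sequences below, from RefSeq, are those of brain microRNAs and families that share a seed, and capitals mark the seed (bases 2 to 8).
miR-9-5p: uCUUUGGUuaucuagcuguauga
miR-29a-3p: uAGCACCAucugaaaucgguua
miR-29b-3p: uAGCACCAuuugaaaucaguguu
miR-29c-3p: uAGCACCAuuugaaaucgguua
miR-132-3p: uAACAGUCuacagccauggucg
miR-212-3p: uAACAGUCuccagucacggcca
let-7c-5p: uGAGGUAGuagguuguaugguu
let-7i-5p: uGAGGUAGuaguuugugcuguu
The hairpin Mir9-2, which encodes miR-9, a regulator of neurogenesis, sat in a region of 6266 bases in the female table and 30349 bases in the male table. That region had 83.2 ± 9.06 CPM in female EE and 87.1 ± 6.65 CPM in female SH libraries (SD, n = 3 each). Mir29b-2 and Mir29c shared 1 region of 5593 bases in females and 9945 bases in males, while Mir29a and Mir29b-1 shared a broad region of 3754 bases in the male table, at chr6:31060688-31064442. This Mir29a and Mir29b-1 region, whose microRNAs share the seed AGCACCA with miR-29c, had 7.74 ± 0.734 CPM in EE (SD, n = 6) and 9.82 ± 1.25 CPM in SH (SD, n = 7), with a log2 fold change of -0.35 (standard error, SE, 0.09; adjusted p = 1). Mir132 and Mir212, activity-regulated microRNAs with the shared seed AACAGUC, lay in 1 male region of 9500 bases. Mirlet7c-1 and Mirlet7i, of the let-7 family with the seed GAGGUAG, lay in male regions of 7802 and 8417 bases.

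Broad regions were a small part of the list and a larger part of its length. They made up 6.64% of autosomal region bases in the female table (6.77 Mb) and 21.9% in the male table (47.6 Mb). Their median width was 3675 bases in females, where other autosomal regions had a median of 441, and 3997 bases in males, where the others had a median of 786. In the female table, 261 regions reached 5 kb, 30 reached 10 kb and 4 reached 20 kb; in the male table the counts were 2759, 398 and 39. Count density was also higher, with a median of 11.2 CPM per kb in female broad regions (interquartile range 8.37 to 14.8) and 7.35 in other female regions. The male medians were 4.85 CPM per kb for broad regions and 3.12 for the others. Nearest to the width threshold in the female table were regions of exactly 3000 bases over Itpr1 and Rnf138 and 1 outside any gene, and, just below it, regions of 2998 bases over Gabbr2 and 1700008C04Rik and of 2999 bases over Cdk5rap2. In the male table regions over Nav3 and Ctnnd2 had 3000 bases, and regions over Lgr4, Vopp1 and Snhg14 had 2999.

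Broad regions lay over gene starts more often than narrower ones. In the female table, 46.5% of them covered an annotated gene start, against 6.81% of other autosomal regions, and 89.7% overlapped a gene, against 71.0%. A wide interval meets a start more easily than a short one, and by midpoint alone 79.5% of broad regions and 68.7% of the others lay within a gene. In the male table, 34.5% covered a start, against 6.13%, and 82.0% had their midpoint in a gene, against 65.7%. Regions outside every listed gene made up 10.3% of the female and 10.9% of the male broad regions.

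The 12 widest regions of each table lay over multicopy genes, over single genes, several of them neuronal, or, for 1 female and 3 male regions, over no listed gene. The widest female region, 86824 bases at chr8:123537457-123624281, overlapped 52 genes, mostly copies of the 5S ribosomal RNA gene (Rn5s). It had 216 to 275 CPM in EE and 249 to 349 CPM in SH libraries. The next, 84871 bases at chr7:59517614-59602485, lay in Snhg14, the long host transcript of tandem small nucleolar RNA genes that is imprinted and expressed from the paternal allele. A region of 38352 bases with 10 predicted genes, at chr9:2999998-3038350, held more counts than any other broad region, 5706 to 12050 CPM in EE and 5924 to 9904 CPM in SH, or 203 CPM per kb. Reads from near-identical copies cannot be assigned to 1 of them, so these values are uncertain. Among the single-copy genes, Jph4, which tethers endoplasmic reticulum to the plasma membrane in neurons, lay with Ap1g2 in a female region of 18760 bases, at 251, 257 and 259 CPM in EE and 241, 273.5 and 291 CPM in SH from lowest to highest. Kalrn, a guanine nucleotide exchange factor of dendritic spines, held a female region of 15370 bases. In the male table the widest region, 147674 bases at chr6:114489821-114637495, overlapped no listed gene. Schip1, a binding partner of schwannomin, lay with the read-through gene Iqschfp in 46129 bases, Synpo, the actin-associated protein synaptopodin of the spine apparatus, in 38748, and Mef2c, an activity-regulated transcription factor, in 38413. EE and SH overlapped in every one of the 12 widest female and 12 widest male regions, and none was called.

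Carriers numbered 1817 genes in the female table and 6819 in the male table. Protein-coding carriers were 1267 of 20150 autosomal coding genes in the female table (6.29%) and 4702 in the male table (23.3%). Carriers were longer genes, with a median span of 30.7 kb in the female table against 17.4 kb for other coding genes, and of 36.8 kb against 14.8 kb in the male table. In the female table, 191 coding genes carried 2 or more broad regions and only Dclk1 carried 10. Dclk1, a doublecortin-like kinase that binds microtubules, was covered by 47.6 kb of broad regions, 16.1% of its span. Snhg14, a noncoding gene, carried 13 and Lncpint, a long noncoding RNA induced by p53, carried 9. Next were Atp2b1, a plasma membrane calcium pump, with 9, Adgrb1, an adhesion receptor of synapses, and Cwc22, a spliceosome factor whose broad regions came to 58.4 kb, with 8 each, and Trio, another exchange factor, and Phactr1, a regulator of actin and protein phosphatase 1, with 7 each. In the male table, 1599 coding genes carried 2 or more and 97 carried 10 or more. Syt1, the calcium sensor of vesicle release, had 42, Grin2b, an NMDA receptor subunit, 39, Phactr1 35, and Kalrn and Ppp3ca, the catalytic subunit of calcineurin, 32 each. Ppp3ca had 68.0% of its span in broad regions.

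Gene lists differed widely in how many members carried a broad region, against the 6.29% of coding genes in the female table and 23.3% in the male table. Over coding genes that passed the low-count filter for RNA the shares were 9.48% and 35.1%. Immediate early genes, which are transcribed within minutes of neuronal activity, had 9 carriers of 20 in the female table and 19 of 20 in the male table. Of the 9, 7 had their start inside a broad region, and the widest were those of Junb, an AP-1 subunit (7041 bases), Arc, a regulator of glutamate receptor trafficking (6338 bases), and the transcription factors Egr1 (4947) and Egr4 (4656). The postsynaptic density list had 12 carriers of 35 in females, with the widest regions at Kalrn and at Camk2a, the calcium/calmodulin kinase subunit of excitatory synapses (15182 bases), and 28 of 35 in males. Presynaptic vesicle genes had 11 of 38 and 29 of 38, with Dnm1, the dynamin of vesicle retrieval, and Snap25, a SNARE protein, widest in females. Circadian clock genes had 7 of 21 and 16 of 21, and all 7 female carriers had their start inside, among them Dbp (10132 bases), Cry2 (8709) and Per1 (7770). Abundant nuclear long noncoding RNAs had 6 of 12 and 9 of 12.

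Other neuronal lists had smaller female shares. Voltage-gated channels had 7 carriers of 38 in females and 28 of 38 in males, and neuronal transcription factors had 10 of 49 and 36 of 49. Neurotrophic signalling had 7 of 27 and 17 of 27, and chromatin regulators 7 of 53 and 27 of 53. Lists of other cells and of housekeeping genes lay from below the coding share to moderately above it. Cytosolic ribosomal proteins had 1 of 45 in females and 7 of 45 in males, and the respiratory chain had 4 of 40 and 13 of 40. Developmental regulators of other lineages had 0 of 37 and 3 of 37, microglia 0 of 13 and 1 of 13, vascular cells 1 of 13 in each table, and oligodendrocytes 1 of 13 in each, which was Mbp. Astrocyte genes had 1 of 14, the glutamate transporter gene Slc1a2, and 4 of 14. GABAergic interneuron genes had 0 of 30 and 8 of 30, and striatal projection neuron genes 2 of 19 and 7 of 19.

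**Figure D1:**
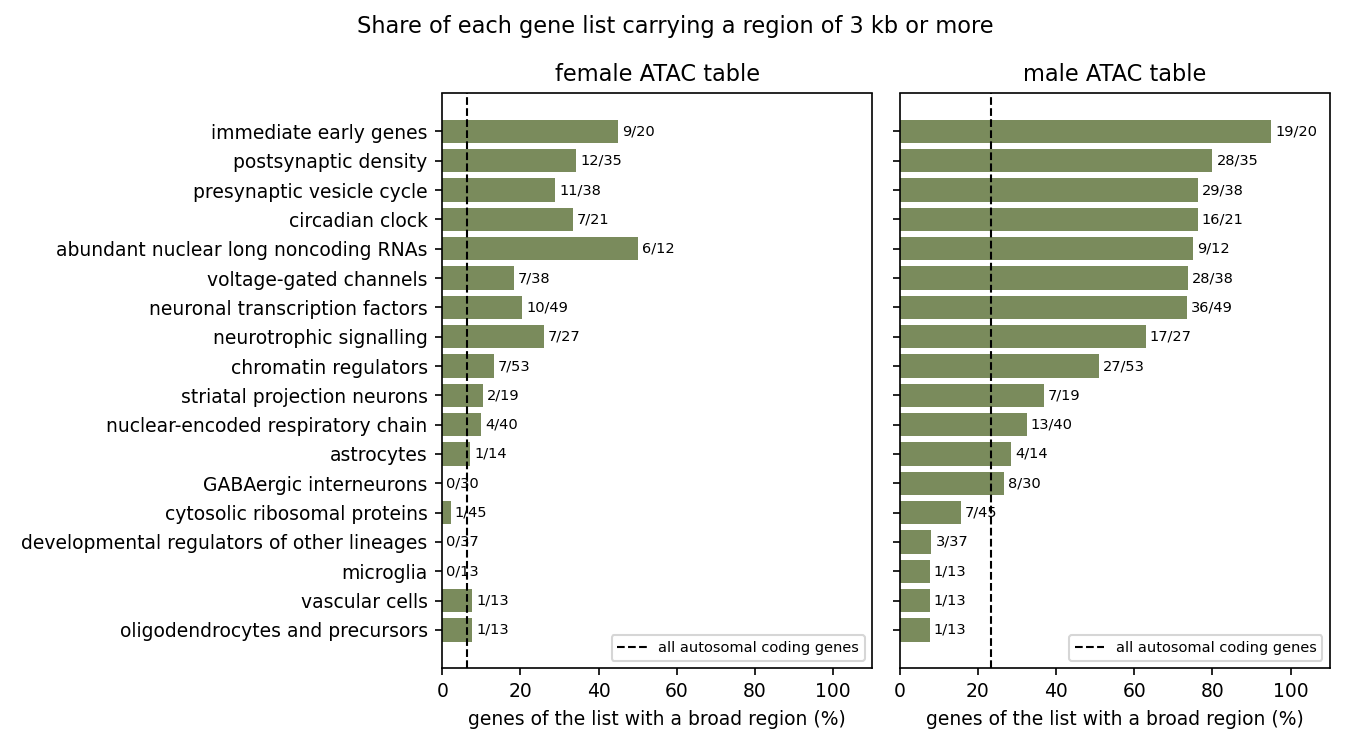
The bars give the percent of each gene list that carried a broad region in the female (left) and the male (right) ATAC table, with carriers over list size beside each bar, and the dashed line marks all autosomal coding genes. Immediate early genes, with 9 of 20 and 19 of 20, lie right of the lines at 6.29% and 23.3%, and microglial genes, with 0 of 13 and 1 of 13, lie left of them.

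Carriers had higher nuclear RNA levels than other genes. Levels were taken as CPM per kb of gene span, since the counts cover introns and exons, over genes that passed the low-count filter (1287 of 1817 female and 4849 of 6819 male carriers). The female carriers had a median log2(CPM per kb + 0.01) of 0.27 ± 0.03 in EE and 0.26 ± 0.02 in SH libraries (SD, n = 6 each), while other autosomal genes had -0.86 ± 0.02 in EE and -0.88 ± 0.02 in SH. The difference, a level 2.2-fold higher in EE and 2.21-fold in SH, lay between 1.10 and 1.17 on the log2 scale in all 12 libraries. Male carriers had -0.20 ± 0.03 in EE libraries and -0.21 ± 0.02 in SH libraries (SD, n = 6 each), against -1.16 ± 0.02 and -1.14 ± 0.02 for other genes, or 1.95-fold and 1.92-fold. Without the low-count filter the difference was 6.10 on the log2 scale in females and 5.67 in males, since genes with few or no counts then entered. In bulk nuclei, fewer cells of a type and less RNA per cell cannot be told apart.

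The level climbed with the number of broad regions that a coding gene carried. In male EE libraries the median was 0.497 CPM per kb for the 7814 coding genes with none, 0.798 for the 2691 with 1, 1.18 for the 1228 with 2 to 4, 1.74 for the 216 with 5 to 9 and 2.79 for the 97 with 10 or more. Male SH libraries gave 0.501, 0.802, 1.17, 1.70 and 2.69 CPM per kb in the same order. Gene length climbed too, with median spans of 27.9, 28.5, 68.6, 169 and 268 kb, and its part in the result was not tested. In female EE libraries the medians were 0.605 CPM per kb with none, 1.19 with 1, 2.38 with 2 to 4 and 3.05 with 5 to 9. Genes were also split by where their start lay. In female EE libraries the median was 1.23 CPM per kb for a start in a broad region, 0.706 for a start in a narrower region and 0.251 for a start in no region.

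**Figure D2:**
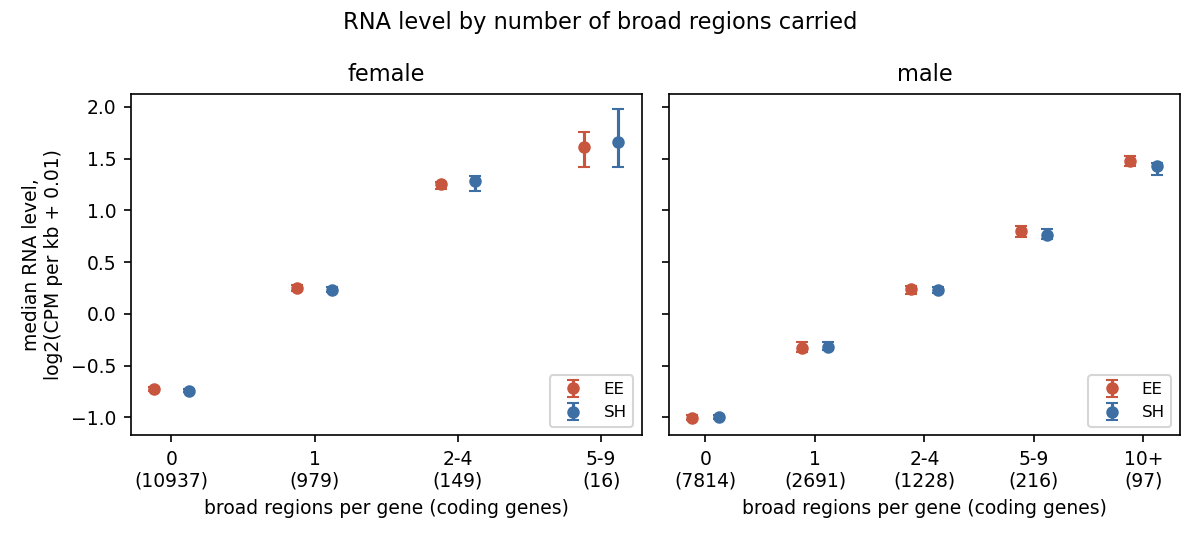
Points give the median RNA level, log2(CPM per kb + 0.01), of coding genes grouped by the number of broad regions they carried (gene counts in parentheses), as the mean over libraries, with bars from the lowest to the highest library, EE left of SH (6 libraries each). The level climbs with every step in both sexes, to 2.79 CPM per kb in EE and 2.69 in SH for male genes with 10 or more.

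Nearly all female broad regions met a male one, and few male regions met a female one. Of the 1556 female regions 1511 (97.1%) overlapped a male broad region by at least 1 base, and of the 9769 male regions 1416 (14.5%) overlapped a female broad region. With 50% of each region required to overlap, 1080 pairs remained, 69.4% of the female and 11.1% of the male list. Carriers in both tables numbered 1777, which was 97.8% of the female and 26.1% of the male carriers. Of the male regions 8058 (82.5%) covered 2 or more separate female regions of any width, with a median of 3 and a maximum of 95, and 254 covered none. The male libraries were deeper, and how regions were joined is not given in the sources used here. Parts of sex, label prefix and depth in the width differences between the tables therefore cannot be told apart.

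In females 4 of 1556 broad regions (0.257%) were called between EE and SH at an adjusted p under 0.05, against 0.0473% of all regions tested. Of these, 1 was higher in EE (0.0643%, against 0.0346% of all regions) and 3 were lower (0.193%, against 0.0127%). The count rested on single libraries: it was 14 without SH replicate 1, of which 12 were lower in EE, 2 without EE replicate 2, 1 without SH replicate 2 or 3, and 0 without EE replicate 3. Without EE replicate 1 it stayed at 4, but only 2 of those were also called with every library. Of the 14 without SH replicate 1, 3 were also called with every library, and of the 2 without EE replicate 2, 1 was. With the replicate number as a block the count was 2. Over all regions, calls numbered 78 with every library and 333 without SH replicate 1, of which 260 were higher in EE and 73 lower. They numbered 26 without EE replicate 2, 22 and 28 without SH replicates 2 and 3, 24 without EE replicate 3 and 34 with the block. The region higher in EE, at chr5:50204005-50207092, lay in no listed gene. It had 21.3, 20.2 and 23.9 CPM in EE libraries and 12.2, 13.8 and 14.2 CPM in SH libraries, replicates 1 to 3. The groups did not overlap, and the log2 fold change was 0.70 (SE 0.12, adjusted p = 0.00328). Without EE replicate 3 it was 0.63 with an adjusted p of 0.092. The male region at the same place had 2886 bases, below the width threshold, with 7.55 ± 1.04 CPM in EE (SD, n = 6) and 6.82 ± 0.808 CPM in SH (SD, n = 7), and a log2 fold change of 0.16 (adjusted p = 1).

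All 3 female broad regions lower in EE lay in Lncpint. The region at chr6:31106000-31110414 had 30.9, 34.9 and 37.0 CPM in EE and 46.0, 46.0 and 52.0 CPM in SH, from lowest to highest, a log2 fold change of -0.49 (SE 0.10). The region at chr6:31149315-31153053 had 17.5, 18.4 and 18.4 CPM in EE and 23.4, 27.8 and 28.2 CPM in SH, a log2 fold change of -0.55 (SE 0.12). The region at chr6:31132204-31135341 had 19.1, 20.2 and 24.0 CPM in EE and 27.0, 32.2 and 32.7 CPM in SH, a log2 fold change of -0.54 (SE 0.11). In each of them every EE library was below every SH library, and the adjusted p was 0.0288. These calls too rested on single libraries: without any 1 of the 6 libraries the first had an adjusted p of 0.0666 to 0.163. The second lost its call (0.0528 to 0.239) when any EE library, SH replicate 2 or SH replicate 3 was left out. The third lost it (0.182 to 0.232) when replicate 2 or 3 of EE or of SH was left out. With the replicate number as a block, the second had an adjusted p of 0.0648 and the third 0.0826.

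The 3 regions were part of a longer run. Within 100 kb of Lncpint, which spans chr6:31093559-31218474, the female table had 13 broad regions, and all 13 had negative log2 fold changes, from -0.55 to -0.03 (12 of 13 with offsets that follow the count level, loess). The male table had 15, of which 10 were negative (9 with loess offsets), from -0.35 to 0.06, and none was called (smallest adjusted p = 0.801). Negative values were common, since only 22.6% of all female and 32.5% of all male broad regions were positive. The male split of 10 in 15 was near that of all male broad regions. With loess offsets 44.8% and 51.4% were positive. The male regions that overlap the 3 female calls had log2 fold changes of 0.02, 0.06 and 0.02 (adjusted p = 1 for each), and whether females and males differed was not tested, since the tables hold different regions. The male regions from chr6:31046513 to chr6:31084670, outside Lncpint and picked after their values were seen, had -0.26, -0.32, -0.35, -0.24 and -0.14. Their unadjusted edgeR p ran from 0.000126 to 0.0327, while 2.89% of all male broad regions were lower in EE under 0.05. The lowest, -0.35, was the Mir29a and Mir29b-1 region described with the microRNAs. Female broad regions at chr6:31069732-31083630 had -0.39, -0.33, -0.39 and -0.46 (smallest adjusted p = 0.0873). Of the 9 male regions over Lncpint 5 were negative. Lncpint RNA itself had 7.36 ± 0.504 CPM per kb in female EE and 7.66 ± 0.574 in female SH libraries (SD, n = 6 each), a log2 fold change of -0.06 (adjusted p = 0.819).

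**Figure D3:**
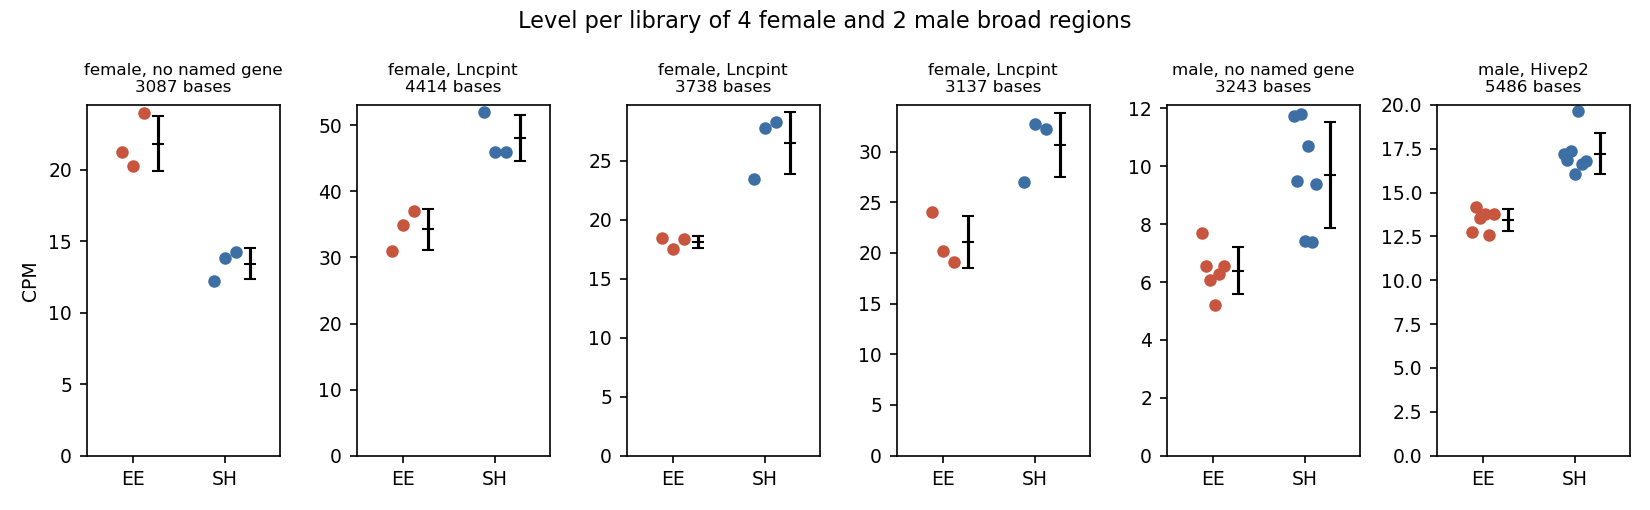
Each point is the level (CPM) of a broad region in 1 ATAC library, EE left of SH, with the mean and 1 SD beside each group, for the 4 regions called in females and the 2 that DESeq2 called in males. EE and SH do not overlap in the 4 female regions or in Hivep2, and they overlap in the male region of 3243 bases.

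Most female broad regions had lower values in EE. At an unadjusted p under 0.05, 178 of them passed (11.4%, against 8.01% of all regions): 159 (10.2%) were lower in EE, against 3.48% of all regions tested, and 19 (1.22%) were higher, against 4.53%. In 222 (14.3%, against 6.3% of all regions) every EE library was below every SH library, and in 33 (2.12%, against 6.46%) every EE library was above. The median log2 fold change was -0.07, against -0.01 over all regions tested, and 22.6% of broad regions were positive, against 48.3%. The scaling moved this. With loess offsets the median was -0.01 and 44.8% were positive, 67 (4.31%) were higher and 94 (6.04%) lower at an unadjusted p under 0.05, and 6 were called, 3 higher and 3 lower, in place of 1 and 3. Without SH replicate 2 the median was -0.05. Over all regions, loess offsets gave 95 calls, 72 higher in EE and 23 lower, in place of 57 and 21. With them 13257 of 164926 regions had an unadjusted p under 0.05 in either direction. In the highest of 10 equal groups by count level, which held 1449 of the 1556 broad regions, the median was -0.08 for broad and -0.04 for other regions.

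In males none of the 9769 broad regions was called by edgeR, and 0% of all regions tested were. At an unadjusted p under 0.05, 362 (3.71%) passed, against 4.54% of all regions: 80 were higher in EE (0.819%, against 2.62%) and 282 lower (2.89%, against 1.92%). limma-trend called none, and DESeq2, which gave no adjusted p for 14956 regions, called 2, against 7 of 192833 regions. The first, at chr7:112360504-112363747 over a gene without a symbol, had 5.21 to 7.70 CPM in EE (median 6.42) and 7.39 to 11.8 CPM in SH (median 9.48), so the groups overlapped. Its log2 fold change was -0.61 (SE 0.11, edgeR adjusted p = 0.311), and without SH replicate 6 the adjusted p was 0.0312. The second lay in Hivep2, a zinc finger transcription factor of the brain, at chr10:14142412-14147898, with 12.6 to 14.2 CPM in EE (median 13.7) and 16.1 to 19.7 CPM in SH (median 16.9). Its groups did not overlap, and the log2 fold change was -0.36 (SE 0.07, edgeR adjusted p = 0.318). In the female table, 3 narrower regions overlapped it, with log2 fold changes of -0.10, -0.10 and -0.30 (smallest adjusted p = 0.80). The region with the smallest p among those higher in EE, at chr6:112223729-112227114 in no gene, had 10.3 to 12.7 CPM in EE and 7.88 to 10.7 CPM in SH (log2 fold change 0.36, adjusted p = 0.801). The groups did not overlap in 11 broad regions lower in EE (0.113%, against 0.0596% of all regions) and in 3 higher in EE (0.0307%, against 0.0638%). The male median log2 fold change was -0.03, against -0.00 over all regions. With loess offsets it was 0.00, 51.4% were positive in place of 32.5%, and 185 (1.89%) were higher and 118 (1.21%) lower at an unadjusted p under 0.05. Over all male regions, 8493 of 192834 passed that p in either direction with loess offsets.

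**Figure D4:**
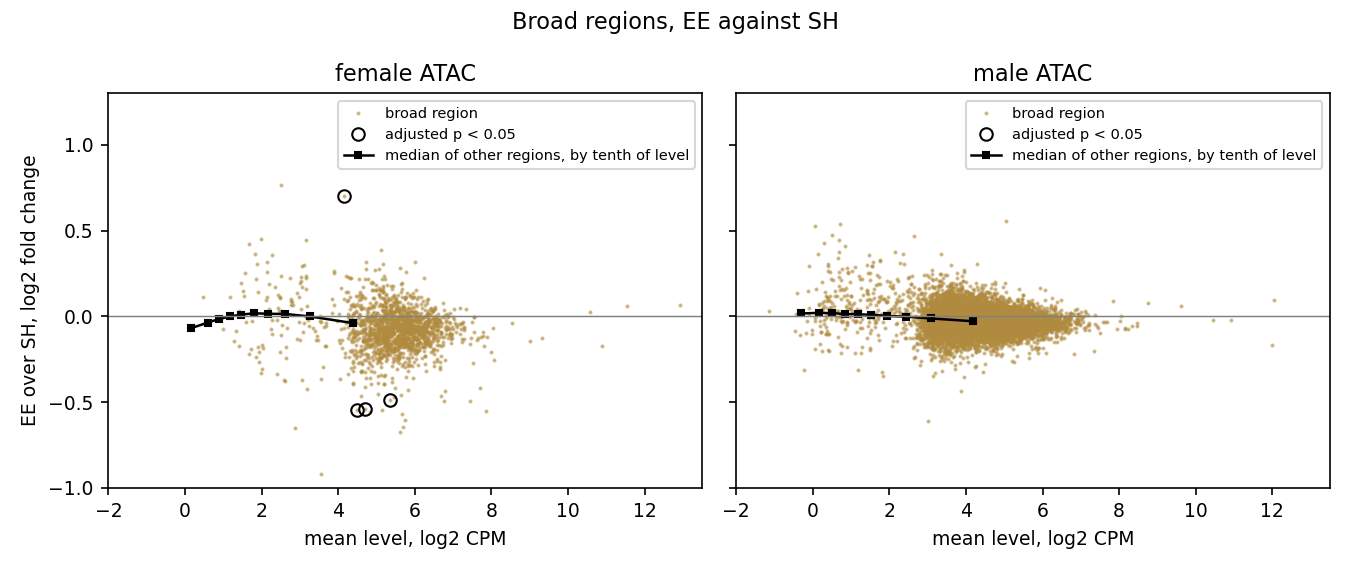
Each point is a broad region, with its mean level (log2 CPM) on the horizontal axis and its EE over SH log2 fold change on the vertical axis; circles mark adjusted p under 0.05, and squares the median of other regions in 10 equal groups by level. The female cloud sits below zero (median -0.07) with 4 circles, and the male cloud (median -0.03) has none.

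The share of all autosomal region counts that fell in broad regions showed the same small offset. It was 10.1%, 9.11% and 9.11% in female EE libraries and 9.87%, 9.85% and 9.63% in female SH libraries, replicates 1 to 3. EE replicate 1 was the highest of the 6 and the other 2 EE libraries the lowest. Without the region at the start of chromosome 9, an alternative chosen after the data were seen, the shares were 8.84%, 8.52% and 8.47% in EE and 8.86%, 9.15% and 9.03% in SH, and all 3 EE libraries lay below all 3 SH libraries. In males the share was 27.0% to 27.9% in EE (median 27.4%) and 27.2% to 28.04% in SH (median 27.9%), and the groups overlapped.

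Broad regions over immediate early genes and RNA from those genes had opposite signs in females, and no value passed the adjusted threshold. All 9 regions had negative log2 fold changes (median -0.22, from -0.64 to -0.04, smallest adjusted p = 0.255; 8 of 9 with loess offsets, median -0.15), and 4 had an unadjusted p under 0.05. This sign was common, since only 22.6% of all female broad regions were positive, and 11.4% of them had an unadjusted p under 0.05. All 8 carriers tested for RNA had positive ones (median 0.63, from 0.23 to 1.22, smallest adjusted p = 0.337), and 5 had an unadjusted p under 0.05, against 49.9% positive among all carriers tested and 8.67% of all genes under that p. The region over Arc, at chr15:74668244-74674582, had 93.0, 94.99 and 70.2 CPM in EE and 109, 102 and 145 CPM in SH libraries, a log2 fold change of -0.47 (SE 0.13, adjusted p = 0.265). Every EE library was below every SH library. Arc RNA had 19.1 to 36.9 CPM in EE (median 23.1) and 5.26 to 23.9 CPM in SH (median 16.97), so the groups overlapped, with a log2 fold change of 0.71 (SE 0.30, adjusted p = 0.556). The region over Junb had 92.0, 89.5 and 88.6 CPM in EE and 93.8, 116 and 122 CPM in SH, a log2 fold change of -0.30 (SE 0.09, adjusted p = 0.255), again without overlap, and Junb RNA a log2 fold change of 0.61 (SE 0.23, adjusted p = 0.421). Egr1 RNA had 22.6 to 42.0 CPM in EE and 6.43 to 21.8 CPM in SH, without overlap, a log2 fold change of 0.91 (SE 0.28, adjusted p = 0.337). ATAC and RNA came from different libraries, so these values cannot be matched within a sample.

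The male table did not give the same signs. Of its 19 regions over immediate early genes 12 were negative (7 with total count scaling, 3 with loess offsets), with a median of -0.00 and a range from -0.12 to 0.09, and of 17 carriers tested for RNA 6 were positive (median -0.08). Among all male broad regions 32.5% were positive (39.4% with total count scaling, 51.4% with loess offsets), and among all male carriers tested for RNA 53.0%. Clock gene carriers had 7 of 7 negative regions in females (median -0.17, smallest adjusted p = 0.431; 6 of 7 with loess offsets), where 22.6% of all broad regions were positive. In males, where 32.5% of all broad regions were positive, 6 of 16 clock gene regions were negative (median 0.01, and 3 of 16 with loess offsets). The median of their RNA log2 fold changes was 0.00 in females and 0.01 in males, where total count scaling gave -0.02. Of the 16 male clock carriers 4 had an RNA p under 0.05 before adjustment, against 9.82% of all male carriers tested and 8.03% of all male genes. They included Dbp, a clock output activator, at -0.33 (adjusted p = 0.144), and its relative Tef at -0.15 (adjusted p = 0.313). The others were Ciart, a clock repressor, at -0.45 (adjusted p = 0.455) and Clock, a core activator, at 0.12 (adjusted p = 0.394). Dbp RNA had 12.45 to 13.07 CPM in male EE and 13.11 to 17.35 CPM in male SH libraries, with no overlap. The region over Per1, a repressor of the clock, had 107, 96.5 and 101 CPM in female EE and 98.2, 126 and 139 CPM in female SH libraries, and the groups overlapped.

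RNA of carriers changed little between EE and SH. In females none of the 1287 tested carriers was called by edgeR or by limma-trend, and 0% of all genes tested were. At an unadjusted p under 0.05, 150 passed (11.7%, against 8.67% of all genes). DESeq2, which gave no adjusted p for 5939 genes, called 17 carriers, against 121 of 14586 genes. Without the low-count filter edgeR called 25 carriers, against 168 of 33545 genes. With the replicate number as a block it called 16, against 95 of 14587 genes. The smallest p belonged to Lmo7, a LIM domain protein of cell junctions, with 137.5 to 172 CPM in EE and 102 to 137.4 CPM in SH, no overlap, and a log2 fold change of 0.33 (SE 0.07, adjusted p = 0.0996). Next was Gabbr2, a subunit of the GABA-B receptor and a carrier of 6 female broad regions, with 892 to 1060 CPM in EE and 987 to 1215 CPM in SH, which overlapped, and a log2 fold change of -0.24 (SE 0.05, adjusted p = 0.12). Its regions ran from -0.25 to 0.07 (smallest adjusted p = 0.508). Thrb, a thyroid hormone receptor, followed with -0.20 (adjusted p = 0.153), and Kdm6b, a histone demethylase, had 0.36 (adjusted p = 0.16), Cntnap5a, a contactin-associated protein, 0.22 (adjusted p = 0.163) and Slit2, a guidance ligand, 0.34 (adjusted p = 0.174). Without SH replicate 2, edgeR called 10 carriers (against 85 of 14719 genes), among them Gabbr2 (adjusted p = 0.00872), Thrb (0.0302) and Lmo7 (0.0425). Without EE replicate 1 it called Slit2 alone among carriers (0.0497), against 13 of 14791 genes.

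In males 3 of 4849 carriers (0.0619%) were called, against 0.0411% of all genes, and 476 (9.82%, against 8.03%) had an unadjusted p under 0.05. Of the 3, 2 were higher in EE (0.0412%, against 0.0343%) and 1 lower (0.0206%, against 0.00685%). Trps1, a GATA-type repressor, had 98.5 to 115 CPM in EE (median 107) and 82.5 to 96.0 CPM in SH (median 88.5), a log2 fold change of 0.26 (SE 0.04). Robo3, an axon guidance receptor, had 45.6 to 59.5 CPM in EE (median 50.3) and 32.5 to 43.3 CPM in SH (median 37.2), a log2 fold change of 0.45 (SE 0.07). Lypd1, a modulator of nicotinic receptors, had 33.9 to 38.0 CPM in EE (median 37.3) and 42.4 to 49.3 CPM in SH (median 44.0), a log2 fold change of -0.28 (SE 0.05). EE and SH did not overlap in any of these genes, and each had an adjusted p of 0.0316. Each carried 1 broad region over its start, and those regions had log2 fold changes of -0.07 at Trps1, 0.07 at Robo3 and -0.09 at Lypd1 (adjusted p = 1 for each). Robo3 had an adjusted p of 0.167 and Lypd1 of 0.0525 with the replicate number as a block. In male RNA this block mostly joined libraries whose column names carry different numbers, and a block by column name was not tested. Leaving out a library ended the Trps1 call for EE replicate 3 (0.0603) and SH replicates 1 (0.0528), 2 (0.0794), 3 (0.0607) and 4 (0.107). It ended that of Robo3 for EE replicates 2 (0.0828) and 3 (0.0912) and SH replicates 1 to 4 (0.0528 to 0.107), and that of Lypd1 for EE replicates 2, 3 and 4 and SH replicates 1, 2, 3, 4 and 6 (0.0517 to 0.11). Without SH replicate 5 there were 5 carrier calls (8 over all genes) and with the block 1 (3 over all genes). Without the low-count filter there were 67 (against 136 of 36188 genes), and with DESeq2 31 (against 49 of 14597 genes).

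A few broad regions differed far more between libraries than between groups. Over all broad regions the ratio of the highest to the lowest library had a median of 1.25 in females, against 1.66 for other regions, and of 1.35 in males, against 1.80. It passed 3-fold in 8105 of 160323 other female and 11401 of 178864 other male autosomal regions. Among broad regions it did so in 21 of 1556 female and 38 of 9769 male ones. All 15 broad regions of 1 female stretch, chr2:77869667-78027168, were among them, with ratios from 4.27 to 5.99, as were all 9 of the same stretch in males, with ratios from 5.51 to 11.0. The stretch covers Cwc22, which in the female table had 89.5% of its span in broad regions. The broad regions of the stretch summed to 2253, 504.6 and 487.4 CPM in female EE libraries and 1899, 733 and 1847 CPM in female SH libraries, so that high and low libraries occurred in both groups. In males they summed to 147 to 754 CPM in EE (median 471) and 149 to 1210 CPM in SH (median 494). Cwc22 RNA varied likewise, from 101 to 529 CPM in EE (median 234) and from 34.8 to 696 CPM in SH (median 134) in females. In males it ran from 142 to 1241 CPM in EE (median 892) and from 137 to 828 CPM in SH (median 186). Cwc22 RNA had a log2 fold change of 0.33 (SE 0.69, adjusted p = 0.939) in the female libraries, and in the male libraries of 1.18 (SE 0.60, adjusted p = 0.677). Egr1 was the only immediate early gene among the female broad regions past 3-fold, at 41.7, 48.4 and 30.1 CPM in EE and 44.0, 52.9 and 90.6 CPM in SH.

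**Figure D5:**
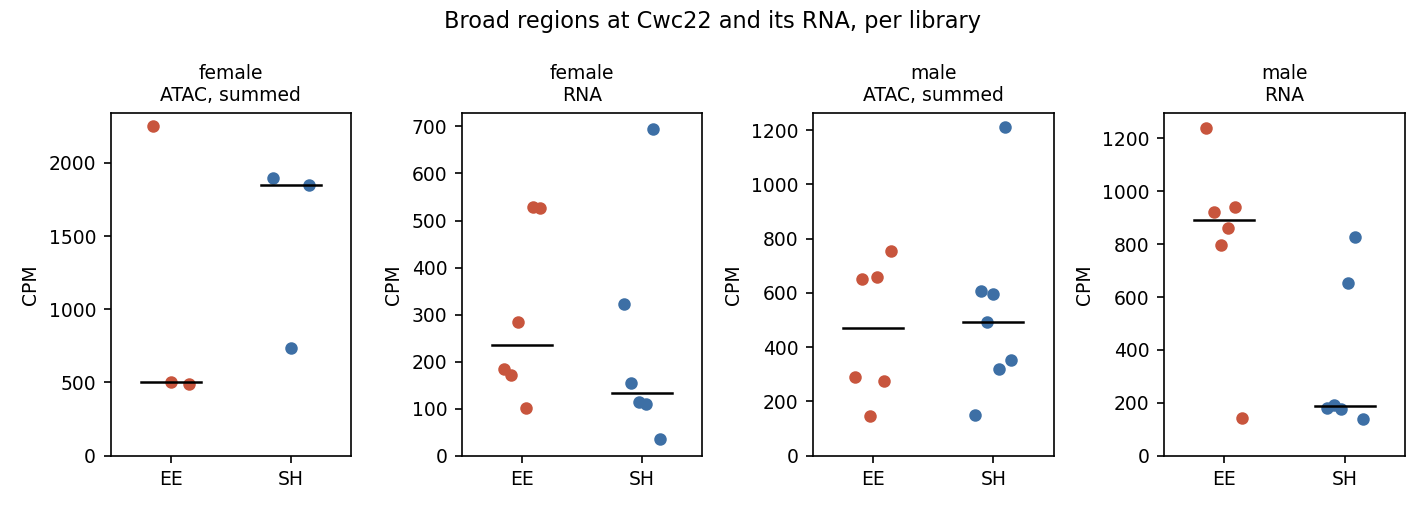
Points give, per library, the summed level (CPM) of the broad regions over the Cwc22 stretch and the RNA level (CPM) of Cwc22, EE left of SH, with a line at the median. High and low libraries occur in both groups in every panel, such as 2253 and 487.4 CPM among female EE ATAC libraries.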

How the data were processed

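ATAC-seq and nuclear RNA-seq were measured in 43 libraries of NeuN-stained nuclei sorted from the frontal cortex of EE and SH mice. The deposited tables hold raw read counts, per region for ATAC and per gene for RNA, with no normalization, as their whole-number values show. The submitters' processing notes name, with no order, the mm10 build, the peak caller MACS2 2.1.1, DiffBind 3.2.2, bedtools, SAMtools 1.3.1, the aligner STAR 2.5.4, edgeR and DESeq2 1.16.1. The sources used here do not give the read counter, its filters, its use of strand or how regions were joined, nor whether listed starts count from 0 or 1. Counts of overlapping or antisense genes are therefore uncertain. Coordinates are printed as listed. In the male RNA table the header is 1 name short, so its columns were read by position. Of 53379 gene IDs 53274 matched a symbol.

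The members and the 18 gene lists (534 genes) were chosen with earlier results of these data known. Each of the 4 tables was fitted alone over all of its features that passed filterByExpr, with TMM scaling and edgeR's robust quasi-likelihood F test in edgeR 4.0.16 (R 4.3.3), EE against SH, and no covariate. Positive log2 fold changes mean higher in EE. Calls are Benjamini-Hochberg adjusted p under 0.05 over the whole table. CPM use TMM-scaled library sizes. RNA levels are CPM per kb of gene span, with a pseudocount of 0.01 on the log2 scale. Shares, medians and levels are descriptions with no test. Named were the 12 widest regions and the 3 nearest to the width threshold on each side, called regions (or the 3 with the smallest p per direction), the 12 genes with the most broad regions or bases, up to 4 carriers per list with the widest region, and the 8 carriers with the smallest p per RNA table. Other scalings, filters, width minimums, overlaps, the replicate block, limma-trend (limma 3.58.1), DESeq2 1.42.0 and leaving out each library were tried. The fits were tested on simulated data. Python 3.11.15, pandas 2.3.3, numpy 2.4.6 and scipy 1.17.1 made the summaries.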

Additional observations from a re-analysis of the deposited data

Results flagged for a closer look

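Of 70 groups of 4 to 10 libraries that were checked, 7 held a library far from the rest by Dixon's criterion, where chance gives about 1 in 20. Slit2 RNA was 309.7 CPM in female SH replicate 3, against 241.7 to 264.4 CPM in the other female SH libraries. Kcnc2 RNA, which encodes a voltage-gated potassium channel, was 366.1 CPM in male EE replicate 3, against 302.4 to 323.2 CPM in the other male EE libraries. Dbp RNA, a clock output gene, was 13.11 CPM in male SH replicate 1, against 15.98 to 17.35 CPM. The same kind of distance appeared for SH replicate 1 of the male ATAC libraries in the share of counts in broad regions, 27.2% against 27.68% to 28.04%. All 4 Snhg14 regions among the 12 widest male regions were lowest in SH replicate 6, and 2 of them met the criterion. The region at chr7:59507080-59617324 had 29.84 CPM, against 47.87 to 61.05 CPM in the other SH libraries, and the region at chr7:59857578-59904960 had 53.56 CPM, against 79.78 to 98.03 CPM. The region at chr7:59693400-59807016 had 121.8 CPM, against 171.2 to 218.4 CPM, and the region at chr7:59461301-59497981 had 10.49 CPM, against 13.15 to 19.21 CPM, both short of the criterion. The Hivep2 region had 19.65 CPM in male SH replicate 5, against 16.05 to 17.39 CPM in the other SH libraries.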

How the results depend on the processing

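Among 26 named regions and genes, 460 values under other settings kept their direction; 385 also kept their side of the threshold, 39 lost a call and 36 gained one. The median log2 fold change of female broad regions, -0.075, was -0.012 with loess offsets, and the male one, -0.028, was 0.0018. The female broad regions called, 4, became 11 at a width minimum of 2000 bases and 1 at 4000, and 0 to 14 when 1 library was left out. The male count, 0, became 2 with DESeq2 and 0 to 1 without 1 library. Over all regions, calls without 1 library numbered 22 to 333 in females and 0 to 3 in males, and with DESeq2 7 in males. Female carriers called for RNA, 0, became 25 without the low-count filter, 17 with DESeq2 and 0 to 10 without 1 library. Male carriers called, 3, became 67, 31 and 0 to 5 under those settings, and 1 at 4000 bases, while their median log2 fold change, 0.0066, was -0.024 with total count scaling. Over all genes, calls without the filter, with DESeq2 and without 1 library were 168, 121 and 0 to 85 in females. In males they were 136, 49 and 0 to 11. The EE minus SH difference in the share of counts, -0.36 percentage points in females, was -0.69 at 2000 bases, -0.20 at 4000 bases and -0.68 to -0.20 without 1 library. The RNA level of female carriers over other genes, 1.14 on the log2 scale, was 1.25 with 50% of the region required inside the gene, 1.01 with a region over the start, 6.10 without the filter and 1.42 at 4000 bases; the male value, 0.95, was 5.67 and 1.07 under the last pair. Sharing between the tables, 97.1% of the female and 14.5% of the male list, was 69.4% and 11.1% with 50% of each region overlapping, and 99.9% and 97.4% against regions of any width. The causes were not tested.

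Whether equal replicate numbers pair the libraries was checked by the correlation of their deviations, which ran from -0.0736 to 0.07 in female ATAC, 0.0292 to 0.321 in female RNA, -0.125 to 0.206 in male ATAC and -0.0379 to 0.234 in male RNA. Not every pair was above 0.1 in any table, though all female RNA correlations were positive, and this check cannot exclude a pairing. In female RNA, equal replicates carry the same number in their column names. In male RNA most equal replicates carry different numbers there, and a pairing by column name was not checked. With the replicate number as a block, calls among broad regions and carriers numbered 2 in female ATAC, 16 in female RNA, 0 in male ATAC and 1 in male RNA. Their median log2 fold changes were -0.073, -0.00082, -0.027 and 0.0057. Over all features the calls numbered 34, 95, 1 and 3 in the same order.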

Other observations

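Some broad regions with large differences between libraries lay outside the Cwc22 stretch, and these were chosen after their values were seen. In females the broad region at chr13:6605777-6612823 in Pfkp, which encodes the platelet-type phosphofructokinase of glycolysis, had 19.0, 3.72 and 1.85 CPM in EE replicates 1 to 3 and 14.4, 16.04 and 15.6 CPM in SH replicates 1 to 3. EE replicate 1 stood with the SH libraries, and the other EE libraries were far lower (log2 fold change -0.92, adjusted p = 0.885). In males the overlapping region, at chr13:6604480-6613060, had 10.5 to 25.3 CPM in EE and 4.87 to 20.2 CPM in SH.

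The male broad region at chr11:6005711-6009723 in Camk2b, the beta subunit of the calcium/calmodulin kinase, had 15.7 to 27.9 CPM in EE libraries. In SH it had 1.94 CPM in replicate 5 and 16.1 to 22.4 CPM in the other libraries. The region at chr1:33567487-33570937 in Prim2, a DNA primase subunit, had 8.64, 7.08 and 5.77 CPM in female EE and 6.13, 2.75 and 3.62 CPM in female SH libraries (log2 fold change 0.76, adjusted p = 0.187).

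The share of regions that were broad differed between chromosomes, from 0.527% to 1.36% in the female table and from 3.10% to 6.39% in the male table.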
